A study of Mus musculus with 70 samples.

Results

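The genes described here are the 10 genes of the MHC class II presentation pathway in the count table: Cd74, H2-Aa, H2-Ab1, H2-Eb1, H2-DMa, H2-DMb1, H2-DMb2, H2-Oa, H2-Ob and Ciita, out of 52636 genes. They were chosen by name, starting from Cd74, which had been selected on its difference between susceptible and resilient mice in Ly6Chigh monocytes. That comparison is therefore given for these genes only as a description. The study exposed C57BL/6J mice, 7 to 8 weeks old at the start, to chronic social defeat stress (CSDS) on 10 successive days, with 10 min of daily contact with a larger CD-1 aggressor. A social interaction test 24 h after the last defeat split the stressed mice into susceptible (SUS, interaction ratio below 1) and resilient (RES, ratio of at least 1) mice. Control mice (CON) were housed in pairs across a partition and were never defeated. The labels name no transgene and no drug. Blood leukocytes were separated by antibodies to CD11b, Ly6C, Ly6G, B220 and CD90.2 into Ly6Chigh and Ly6Clow monocytes, B cells and T cells, so no class II antibody took part in the gates. The sample labels name brain as the source, whereas the series design and the methods describe blood leukocytes.

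There were 70 libraries, 6 for each cell type and group except 4 for CON in Ly6Clow monocytes. Library 52, labelled B cells of a RES mouse, and library 70, labelled T cells of a RES mouse, carried the markers of the other cell type and were left out, leaving 68. Total counts ranged from 19769835 to 67038231 per library (median 37105583.5). Each library was made from 500 pg of RNA, and the labels do not tie libraries to mice. Libraries were therefore treated as independent samples, and a p-value measures only the spread between these libraries, which may in part be technical. In RNA from sorted populations, fewer cells of one type and less RNA per cell cannot be told apart.

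MHC class II molecules present peptides from endocytosed protein to CD4+ T cells and are the hallmark of B cells, dendritic cells and activated macrophages. H2-Aa and H2-Ab1 encode the alpha and beta chains of I-A, and H2-Eb1 encodes the beta chain of I-E. C57BL/6 mice carry a defective I-E alpha gene, so I-A is the class II molecule they display. Cd74 encodes the invariant chain, which occupies the peptide groove of new class II molecules, takes them to the endosome, and also serves as a cell surface receptor for the cytokine MIF. There the invariant chain is cut down by proteases, and H2-DM, made of H2-DMa with H2-DMb1 or H2-DMb2, exchanges its last fragment for antigenic peptide. H2-O, made of H2-Oa and H2-Ob, holds H2-DM in check. Ciita is the coactivator that switches the whole set on. It does not bind DNA but docks on a complex of RFX, CREB and NF-Y that sits on the X and Y boxes of class II promoters. In the GRCm38 build, Cd74 is on chromosome 18 from 60803848 to 60812652 and Ciita on chromosome 16 from 10480059 to 10528418, both on the plus strand.

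Of the members, 8 lie in the class II region of chromosome 17 (GRCm38 coordinates, GENCODE M21 annotation) and all 10 are protein-coding. From the start of the region, H2-Oa spans 34092340 to 34095234, H2-DMa 34119541 to 34139101, H2-DMb2 34143307 to 34151555, H2-DMb1 34153072 to 34160230, H2-Ob 34238903 to 34254414, H2-Ab1 34257689 to 34269419, H2-Aa 34282744 to 34287823 and H2-Eb1 34305867 to 34316674. H2-Aa is on the minus strand and the others are on the plus strand. The exons of H2-DMa overlap those of Brd2 on the other strand by 360 bases, Ciita overlaps Dexi by 329 bases, H2-Oa overlaps the antisense gene BC051537 by 321 bases and Cd74 overlaps Mir5107 by 12 bases. Whether reads were counted by strand is not given in the sources used here, so reads in those overlaps are uncertain.

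The class II promoter boxes are shown because Ciita acts through them, and not every member promoter searched here held both cores. RefSeq promoters (GRCm38.p6; 300 bases each, 250 before the start and 50 after) were held for 7 members. ATTGG, the Y box core, searched on both strands, was found in 7 of the 7 and in 37.4% of 32851 promoters. AGNAAC, a core of the X box, was found in 5 of the 7 and in 48.1% of promoters. The pair, ATTGG starting 25 to 45 bases after AGNAAC on the same strand, was found in 4 of the 7 members (H2-DMb1, H2-Eb1, H2-Oa and H2-Ob) and in 1.14% of promoters. In the windows below, capitals mark AGNAAC and ATTGG.
H2-Eb1, chr17:34305765-34305812, plus strand: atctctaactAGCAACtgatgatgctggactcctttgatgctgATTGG
H2-Oa, chr17:34092292-34092340, plus strand: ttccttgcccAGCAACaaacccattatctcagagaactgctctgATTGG
H2-Ob, chr17:34238807-34238852, plus strand: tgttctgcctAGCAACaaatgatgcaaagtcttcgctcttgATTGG
H2-Aa, chr17:34287867-34287915, minus strand: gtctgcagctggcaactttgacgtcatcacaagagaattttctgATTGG
H2-DMb1, chr17:34153086-34153115, plus strand: aggtttacctAGTAACtgatgatgctaggc
H2-DMb2, chr17:34145115-34145144, plus strand: aggtttacctattaaccgatgatgctaggc
The H2-DMb1 and H2-DMb2 windows are cut to 30 bases, since GENCODE places the former inside the first exon, and they differ at 2 of 30 bases, 1 of them in the 6-base core. The H2-Aa window carries ATTGG without AGNAAC. A match of letters is a description and not a measured binding site.

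H2-DMb1 and H2-DMb2 encode alternative beta chains of H2-DM and are near-copies: their coding sequences have 786 bases each, differ at 32 and are 95.9% identical, and 72 of 637 stretches of 150 bases (the read length) of H2-DMb1 occur unchanged in H2-DMb2. A read wholly inside such a stretch cannot be placed by its own bases, although its mate may place it. Single values of H2-DMb1 and H2-DMb2 are therefore less certain than those of the other members. Most differences lie in one stretch, shown because it is where a read tells the genes apart. Its 60 coding bases (208 to 267) differ at 17 positions, which are in capitals.
H2-DMb1, chr17:34155585-34155644, plus strand: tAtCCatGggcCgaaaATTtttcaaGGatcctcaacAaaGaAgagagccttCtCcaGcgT
H2-DMb2, chr17:34147803-34147862, plus strand: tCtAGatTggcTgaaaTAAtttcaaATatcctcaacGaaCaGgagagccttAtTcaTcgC

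All 10 members were measured in all 4 cell types of unstressed mice, and B cells held the highest mean level of each. Levels across cell types are given as counts-per-million (CPM), scaled jointly over all libraries by the trimmed mean of M-values (TMM), per kb of exon. Cd74 was the highest of the 10 in every cell type, with 5805 ± 486 CPM per kb in B cells (SD, n = 6), 1030 ± 377 in Ly6Clow monocytes (n = 4), 292 ± 38.1 in Ly6Chigh monocytes (n = 6) and 13.4 ± 9.94 in T cells (n = 6). In B cells the classical chains came next, H2-Ab1 at 1480, H2-Eb1 at 1117 and H2-Aa at 689 CPM per kb, and H2-DMb1 was last at 54.4. The order differed in Ly6Chigh monocytes, where H2-Ab1 (48.6 CPM per kb) was followed by H2-DMb1 (27.1), H2-DMa (24.9), H2-Aa (20.9) and H2-Eb1 (18.5). Those last 4 overlapped in their ranges over libraries. H2-Oa (0.618) and H2-Ob (0.587) were the lowest there.

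**Figure D1:**
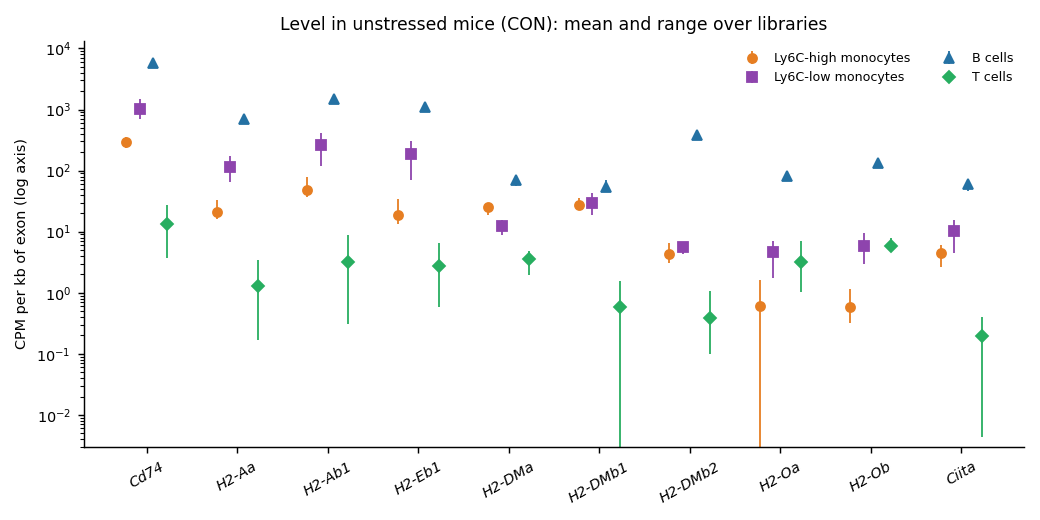
Level of the 10 members in CON mice in each sorted cell type, as jointly scaled CPM per kb of exon on a log axis; symbols are means and lines span the lowest to the highest library (n = 6, or 4 for Ly6Clow monocytes), and a line that reaches the lower edge includes a library with no reads. B cells lie highest for every gene, and the distance to the Ly6Chigh monocytes is smallest for H2-DMb1 and H2-DMa.

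Set against B cells, the members fell into separate patterns. In Ly6Chigh monocytes the mean level was 5.03% of the B cell level for Cd74, 3.03% for H2-Aa, 3.29% for H2-Ab1 and 1.66% for H2-Eb1, whereas it was 36.1% for H2-DMa and 49.7% for H2-DMb1. In Ly6Clow monocytes Cd74, H2-Aa, H2-Ab1, H2-Eb1, H2-DMa and Ciita lay between 16.6% and 17.9% of the B cell level. H2-DMb2 lay at 1.13% in Ly6Chigh and 1.47% in Ly6Clow monocytes. T cells held 0.188% to 0.249% of the B cell level of Cd74 and the classical chains, but 5.12% of H2-DMa, 4.44% of H2-Ob and 3.94% of H2-Oa. For scale, the summed B cell markers (9 genes) stood at 0.223% of their B cell level in Ly6Chigh monocytes, 1.03% in Ly6Clow monocytes and 0.281% in T cells. Thus Cd74 and the 3 classical chains in T cells lay at or below the level of the B cell markers there, while in both monocyte types Cd74 lay above it.

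The cell types were compared within CON by edgeR's quasi-likelihood test with Benjamini-Hochberg adjustment over 24248 genes. Between Ly6Chigh and Ly6Clow monocytes 8 of 10 members passed an adjusted p of 0.05, against 16.9% of all genes. Of these, 7 were lower in Ly6Chigh monocytes, with Cd74 at a log2 fold change of −1.82 (SE 0.355, adjusted p = 8.51e-05), H2-Eb1 at −3.32 and Ciita at −1.23, and H2-DMa alone was higher (1.02, SE 0.249, adjusted p = 0.00161). H2-DMb1 (−0.13, 95% interval −1.05 to 0.80) and H2-DMb2 (−0.38, −1.18 to 0.43) did not pass. All 10 were lower in Ly6Chigh monocytes than in B cells (43.8% of genes passed), although for H2-DMb1 the adjusted p was 0.0489 and rose above the threshold with DESeq2. In Ly6Clow monocytes 9 of 10 were lower than in B cells (38.9% passed), and H2-DMb1 did not pass (−0.88, −1.83 to 0.07). Against T cells, 8 members were higher in Ly6Chigh monocytes, while H2-Oa (−2.38) and H2-Ob (−3.31) were lower (43.1% passed). In Ly6Clow monocytes the same 8 were higher than in T cells, and H2-Oa (0.52, −0.56 to 1.60) and H2-Ob (−0.01, −0.75 to 0.73) did not pass (35.7% passed). All 10 were higher in B cells than in T cells (28.9% passed).

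Stress was compared within each cell type, and levels from here on are CPM scaled by TMM within that cell type. In Ly6Chigh monocytes, the inflammatory monocytes of blood, Cd74 and the 3 classical chains H2-Aa, H2-Ab1 and H2-Eb1 fell in SUS mice compared with CON mice, by 1.78-fold to 2.08-fold in the fit. None of the H2-DM genes passed: H2-DMa and H2-DMb1 had positive log2 fold changes, which turned negative with the red cell or the dendritic cell covariate, and H2-DMb2 a negative one. In RES mice no member passed against CON.

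Cd74 measured 371, 432, 463, 482, 503 and 548 CPM in the 6 CON libraries, 215, 220, 231, 232, 249 and 253 CPM in the SUS libraries, and 372, 381, 398, 446, 489 and 579 CPM in the RES libraries. Every SUS library was below every CON library, and CON and RES overlapped. Every SUS library was also below every RES library, which is a description only, since Cd74 was chosen on that difference. The mean was 467 ± 60.8 CPM in CON, 233 ± 15.2 in SUS and 444 ± 79.3 in RES (SD, n = 6 each), and the log2 fold change of SUS against CON was −0.999 (SE 0.124, adjusted p = 0.000166, edgeR).
H2-Aa, the I-A alpha chain, measured 59.7, 61.3, 64.1, 71.6, 75.7 and 119 CPM in CON and 23.4, 24.8, 36.1, 37.8, 39.8 and 55.3 CPM in SUS, so that all SUS libraries were below all CON libraries. Its log2 fold change was −1.05 (SE 0.214, adjusted p = 0.00287).
H2-Eb1 measured 24.3, 25.4, 28.5, 31.0, 32.9 and 63.1 CPM in CON and 8.34, 10.7, 16.8, 19.2, 21.6 and 22.0 CPM in SUS, again with no overlap (log2 fold change −1.05, SE 0.291, adjusted p = 0.0189).
H2-Ab1, the I-A beta chain, measured 87.2, 97.4, 105, 107, 128 and 188 CPM in CON and 34.8, 61.3, 64.3, 65.2, 83.6 and 89.9 CPM in SUS, where the highest SUS library lay just above the lowest CON library (log2 fold change −0.84, SE 0.214, adjusted p = 0.0123). The same CON library, number 7, was the highest for all 4 genes.

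Of the 10 members, 4 passed an adjusted p of 0.05, all of them lower in SUS, against 12.6% of the 16955 genes tested in either direction and 3.84% lower. With the study's second threshold, an absolute log2 fold change above 1, 2 members remained (H2-Aa and H2-Eb1), against 1.17% of genes lower, and Cd74, at −0.999, was just short of it. For 3 members every SUS library was below every CON library, against 2.74% of genes. At an unadjusted p of 0.05, 5 members passed, against 26.5% of genes, Ciita being the fifth. The median log2 fold change was −0.88 over the members and −0.05 over all genes tested. These SUS libraries are the ones on which Cd74 was chosen, so the counts are not independent of that choice. Without CON library 7, 0 members passed both thresholds and 3 passed the adjusted p alone, with H2-Aa at −0.89 and H2-Eb1 at −0.80 (adjusted p = 0.0683). Without SUS library 14 or SUS library 17, 1 member passed both thresholds and 4 passed the adjusted p.

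The other members were lower in level or more spread. Ciita lay between 23.9 and 53.4 CPM in CON (median 39.7), 15.8 and 40.1 in SUS (median 31.4) and 26.6 and 54.8 in RES (median 37.0), with overlapping groups and a log2 fold change of −0.49 for SUS against CON (SE 0.232, adjusted p = 0.179). H2-DMa ranged from 62.6 to 96.5 CPM in CON, from 72.3 to 178 in SUS and from 60.7 to 135 in RES, and its SUS log2 fold change was 0.31 (95% interval −0.07 to 0.69). H2-DMb1 ranged from 36.7 to 55.6 CPM in CON and from 29.0 to 78.4 in SUS (0.22, −0.14 to 0.59). H2-DMb2 lay between 1.65 and 11.3 CPM over the 18 libraries (−0.39, −1.31 to 0.52), H2-Ob between 0.147 and 6.28 (−1.05, −2.36 to 0.26) and H2-Oa between 0 and 2.23 (−0.93, −3.57 to 1.71). At these levels a difference in H2-O smaller than those intervals was not detectable.

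**Figure D2:**
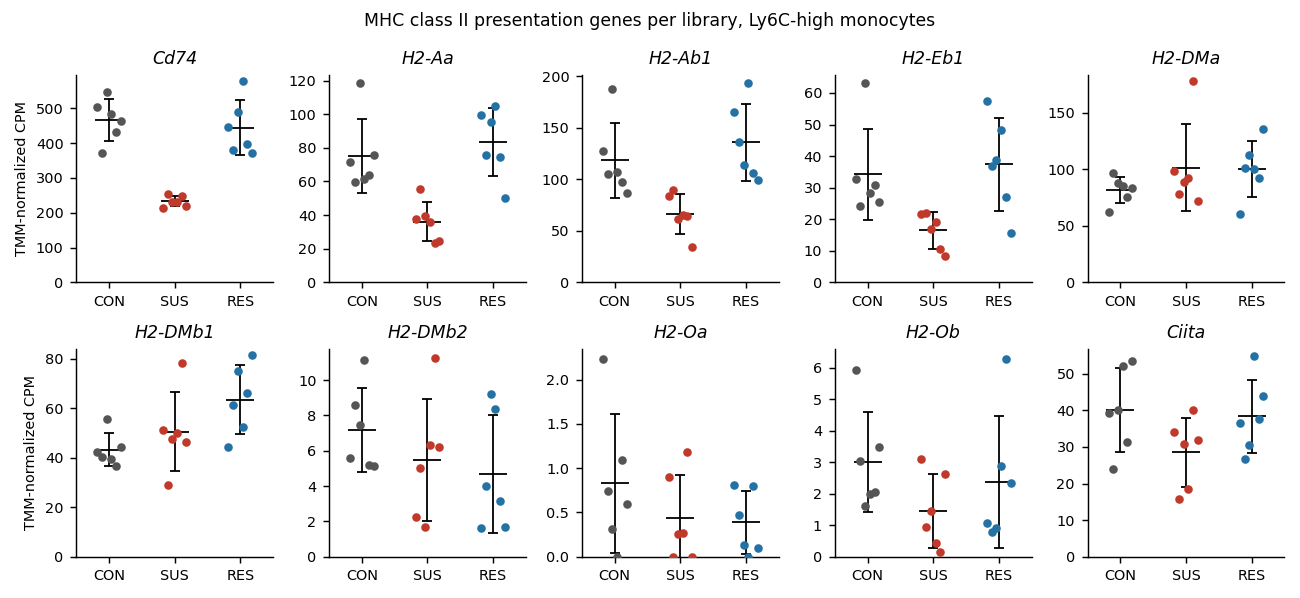
TMM-normalized CPM of each member in Ly6Chigh monocytes, 1 point per library (n = 6 per group), with the mean as a horizontal line and bars of 1 SD, cut at 0 where the bar would pass below it. The 6 SUS libraries of Cd74 lie between 215 and 253 CPM, below all CON libraries, whereas the groups of H2-DMa, H2-DMb2 and H2-Oa overlap. They also lie below all RES libraries, the comparison on which Cd74 was chosen.

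RES mice, which had the same defeat, were compared with the same CON libraries. The RES log2 fold changes were −0.07 for Cd74 (95% interval −0.31 to 0.17), 0.15 for H2-Aa (−0.26 to 0.57), 0.20 for H2-Ab1 (−0.22 to 0.61) and 0.13 for H2-Eb1 (−0.43 to 0.69). No member passed with edgeR (4.97% of genes did) and 0 passed with DESeq2, where 1632 genes did. In an edgeR fit of only the RES and CON libraries 1 member, H2-DMb1, passed the adjusted p. In that fit 1646 genes passed, against 842 in the main fit. At an unadjusted p of 0.05, 1 member passed, against 21.2% of genes: H2-DMb1, with 44.3 to 81.4 CPM in RES (0.55, SE 0.188, adjusted p = 0.0838). The SUS and RES levels themselves, which led to the choice of Cd74, are a description: the log2 fold change of SUS against RES was −0.93 for Cd74 (SE 0.124), −1.21 for H2-Aa (SE 0.215), −1.03 for H2-Ab1 (SE 0.215), −1.18 for H2-Eb1 (SE 0.291), −0.43 for Ciita (SE 0.232), 0.01 for H2-DMa (SE 0.195) and −0.33 for H2-DMb1 (SE 0.188). H2-Aa measured 50.4, 74.5, 76.0, 95.6, 99.6 and 105 CPM in RES, and only its lowest RES library overlapped the SUS range.

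Marker lists of several cell types, the sorted Ly6Chigh monocytes included, were compared between these groups. Whether a marker came from other cells or from the sorted monocytes cannot be told from these libraries. The summed level of 9 dendritic cell markers was 152 to 183 CPM in CON, 64.2 to 114 in SUS and 101 to 170 in RES, and 1 of the 7 tested passed, lower in SUS: Cd209a, a C-type lectin, at 37.6 to 68.9 CPM in CON, 0.606 to 10.1 in SUS and 3.94 to 39.9 in RES. Siglech and Ccr7 had a mean below 1 CPM in every group, and Flt3, at 23.2 to 94.3 CPM, made up much of the sum. Of the 7 tested, Xcr1 alone had a positive log2 fold change for SUS against CON (0.69, adjusted p = 0.692), and Clec10a stood at −0.11. The 6 red cell markers summed to 332 to 1142 CPM in CON, 1049 to 8776 in SUS and 1044 to 4130 in RES, and all 6 passed as higher in SUS. The 9 B cell markers summed to 9.38 to 21.8 CPM in CON, 5.90 to 14.5 in SUS and 7.35 to 18.4 in RES, with 0 of 4 tested passing, and a mean of Ms4a1, Pax5, Ebf1 and Blk below 1 CPM in each group. The 5 platelet markers summed to 5.28 to 9.51 CPM in CON, 5.06 to 49.3 in SUS and 7.05 to 18.3 in RES, and 1 of them, Ppbp, passed as higher in SUS (2.31, adjusted p = 0.0326). The 6 neutrophil markers summed to 9.00 to 354 CPM in CON, 17.5 to 1054 in SUS and 5.71 to 596 in RES, and 0 of 5 tested passed. Of the 6 Ly6C-high monocyte markers, 5 passed as higher in SUS, as did 1488 of the 16955 genes tested. Their sums were 4219 to 5500 CPM in CON, 7068 to 9883 in SUS and 4629 to 8195 in RES. Among the 5 were Ly6c2, the gene of the sorting antigen (0.82, adjusted p = 0.0243), and Mmp8 (1.49, adjusted p = 0.000209). The paper already reports Mmp8 as a leading gene of this comparison. The marker list was chosen with earlier results of these data known, so the count of 5 is not independent of that choice. With the mean of the red cell markers as a covariate, Cd74 stood at −0.90 (adjusted p = 0.0618) and no member passed, with that of the dendritic cell markers at −0.77 and no member passed (2 and 0 of all genes passed in those fits), and with that of the B cell markers at −0.98 (adjusted p = 0.00192), with 2 members passing. In the first 2 of these fits H2-DMa and H2-DMb1 had negative log2 fold changes. Both of those marker lists themselves differed between CON and SUS, the dendritic cell sums without overlap. A fit with such a covariate cannot separate the marker level from the group. The part of other cells, or of a change within the sorted monocytes, in the class II result was not otherwise tested.

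In Ly6Clow monocytes, the patrolling monocytes, all 10 members had a lower fitted mean in SUS than in CON mice, and none passed after adjustment. Cd74 measured 1382, 1474, 2372 and 2962 CPM in the 4 CON libraries, 677, 718, 996, 1200.1, 1223 and 1277 CPM in the SUS libraries, and 856, 1018, 1486, 1615, 1676 and 1844 CPM in the RES libraries. All SUS libraries were below all CON libraries, and RES overlapped both. The log2 fold change for SUS was −1.01 (SE 0.280, adjusted p = 0.208).
H2-Ab1 measured 361, 529, 1047 and 1278 CPM in CON and 243 to 443 in SUS (−1.17, SE 0.329, adjusted p = 0.216). H2-Aa measured 289, 319, 685 and 795 CPM in CON and 150.4 to 351 in SUS, and H2-Eb1 164, 282, 561 and 696 in CON and 90.7 to 249 in SUS.
Ciita measured 50.5, 93.8, 146 and 177 CPM in CON and 44.0 to 102 in SUS. The CON libraries thus split, with 21 and 29 high and 24 and 32 low, for Cd74, the 3 classical chains and Ciita alike.

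The SUS log2 fold changes of the 10 members ran from −1.24 (H2-Eb1) to −0.55 (H2-DMa), with a median of −1.06 against −0.01 over all genes, and adjusted p-values from 0.165 to 0.391. Of the members, 0 passed an adjusted p of 0.05 with edgeR (0.241% of 19521 genes did), 10 passed an unadjusted p of 0.05 (9.51% of genes) and 3 passed with DESeq2 (Cd74, H2-Ab1 and H2-Ob). Because the members were high and low in the same libraries, these 10 are not 10 separate observations. The share of all genes that passed with DESeq2 is not given here, so its 3 calls have no rate beside them. For 1 member, Cd74, every SUS library was below every CON library (0.855% of genes). Without SUS library 33, H2-DMb2 passed. Unlike in Ly6Chigh monocytes, H2-DMa (35.4 to 63.9 CPM in CON, 28.9 to 44.6 in SUS) and H2-DMb1 (37.5 to 84.0 and 26.3 to 56.4) had negative values, −0.55 and −0.59.
For RES against CON the values ran from −0.89 (H2-Ob) to −0.20 (H2-DMa) and 0 passed (0.0256% of genes; at an unadjusted p 1 member against 9.67%, and 0 with DESeq2). For SUS against RES they ran from −0.72 to −0.23 and 0 passed (0% of genes; at an unadjusted p 2 members against 3.79%, and 0 with DESeq2). The SUS and RES contrasts share the 4 CON libraries.

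**Figure D3:**
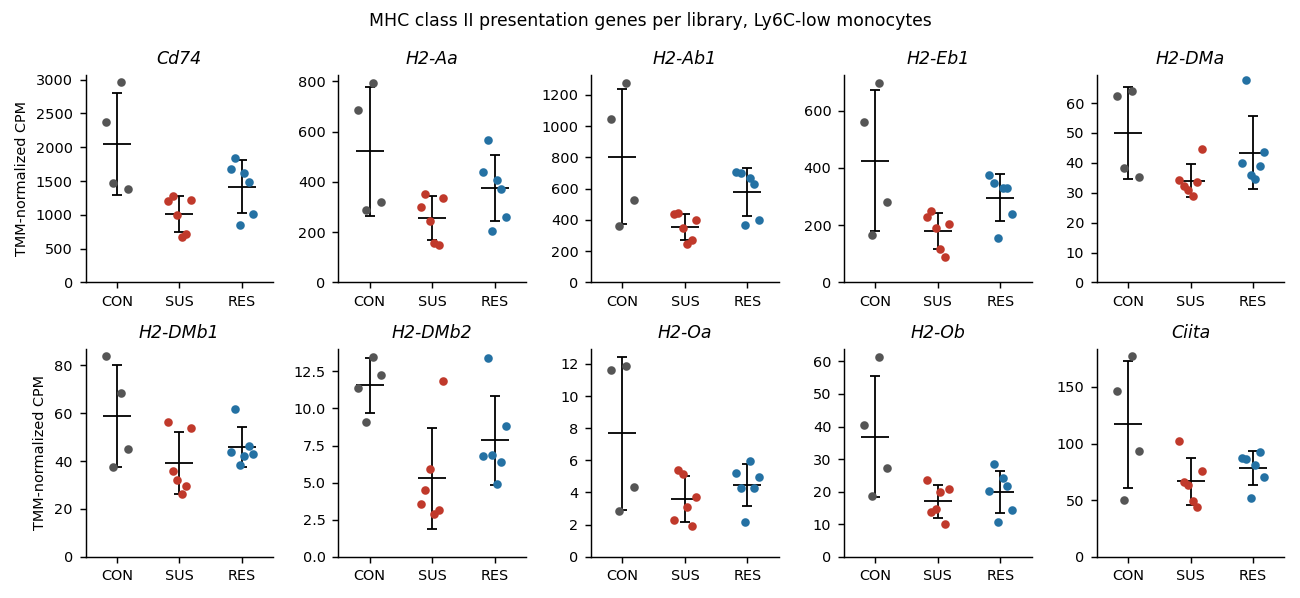
TMM-normalized CPM of each member in Ly6Clow monocytes, 1 point per library (CON n = 4, SUS and RES n = 6), with the mean as a horizontal line and bars of 1 SD. The SUS libraries of Cd74 lie between 677 and 1277 CPM, below the 4 CON libraries, and 2 of the 4 CON libraries lie apart from the others for Cd74, the classical chains and Ciita.

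In these libraries the dendritic cell markers summed to 579 to 860 CPM in CON, 536 to 652 in SUS and 531 to 658 in RES, with 1 of 9 passing as lower in SUS, Zbtb46, a transcription factor of classical dendritic cells (adjusted p = 0.0260). Itgax, at 351 to 542 CPM, held most of the sum, and Siglech had a mean below 1 CPM in each group. Itgax alone of the 9 had a positive log2 fold change for SUS against CON (0.15, adjusted p = 0.769), the others being negative. B cell markers summed to 75.6 to 97.2 CPM in CON, 67.1 to 91.3 in SUS and 53.7 to 78.3 in RES, and natural killer cell markers to between 291 and 1577 CPM over all libraries. With the mean of the dendritic cell markers as a covariate, 9 of the 10 SUS log2 fold changes became positive, between 0.0050 and 0.45, and H2-DMb2 stayed negative at −0.55. None of the 10 passed in that edgeR fit (adjusted p from 0.99942 to 0.999471), so these signs rest on differences that the fit did not resolve. Within groups, Cd74 went with the dendritic cell marker mean over the 16 libraries (Pearson's r = 0.86, Spearman's rho = 0.85, permutation test adjusted p = 0.00293 for r) and r was 0.82 without the 2 libraries farthest from the median marker mean.

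In B cells, where class II genes are always on, no member passed for SUS or RES mice. Cd74 ranged from 7694 to 9570 CPM in CON, from 7392 to 11726 in SUS and from 7556 to 10816 in RES (n = 5), with overlapping groups. H2-Aa had means of 2316 ± 238, 2435 ± 396 and 2495 ± 287 CPM, and Ciita of 502 ± 67.8, 532 ± 77.8 and 540.2 ± 73.1 CPM. SUS log2 fold changes of the members ran from −0.03 to 0.20 and RES ones from 0.02 to 0.19, and the 95% intervals of all of them lay between −0.24 and 0.44. Of the members, 0 passed for SUS against CON (0.00568% of 17620 genes did), RES against CON (0%) or SUS against RES (0%). At an unadjusted p of 0.05, 0 passed in each (3.42%, 3.18% and 1.36% of genes), and 0 passed with DESeq2.

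In T cells the classical chains and Cd74 were low compared with B cells and varied widely between libraries, Cd74 between 154 and 2407 reads. Cd74 ranged from 6.50 to 47.7 CPM in CON, 7.63 to 25.7 in SUS and 6.77 to 33.2 in RES, and H2-Aa from 0.675 to 13.5, 0.869 to 3.54 and 0.776 to 9.15. H2-Ob, the H2-O beta chain, lay at 27.7 to 44.0 CPM in CON, 24.4 to 32.3 in SUS and 24.3 to 37.2 in RES. H2-DMa lay between 6.88 and 27.9 CPM and H2-Oa between 1.52 and 12.4 over the 17 libraries. The log2 fold change of Cd74 was −0.76 for SUS (95% interval −1.88 to 0.36) and −0.36 for RES (−1.53 to 0.81), and that of H2-Ob −0.14 (−0.41 to 0.14) and −0.11 (−0.40 to 0.18). Of the members, 0 passed for SUS against CON (0.0424% of 18860 genes), RES against CON (0%) or SUS against RES (0%), 0 passed an unadjusted p of 0.05 (4.8%, 4.11% and 2.39% of genes), and 0 passed with DESeq2.

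**Figure D4:**
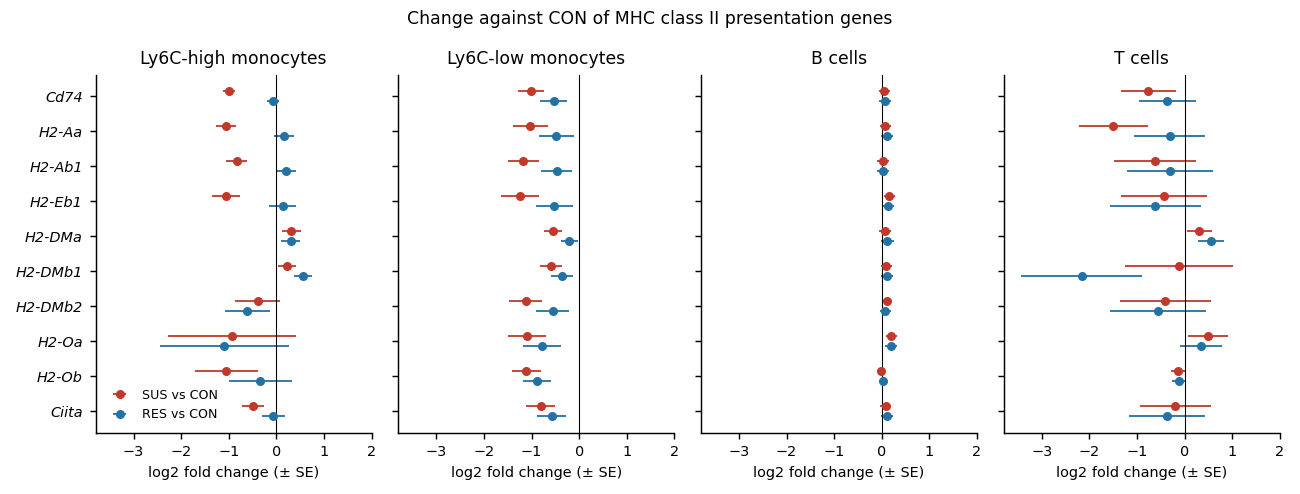
Log2 fold change of each member for SUS (red) and RES (blue) against CON in the 4 cell types, with bars of 1 SE. In Ly6Chigh monocytes the SUS points of Cd74, H2-Aa, H2-Ab1 and H2-Eb1 lie between −1.05 and −0.84 and the RES points between −0.07 and 0.20, and in B cells all points lie between −0.03 and 0.20.

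Whether the change in Ly6Chigh monocytes differed from that in another cell type was tested as an interaction in a fit of all 12 groups, which treats the libraries of different cell types as independent although they may come from the same mice. For Cd74 in SUS mice, the log2 fold change in Ly6Chigh monocytes minus that in Ly6Clow monocytes was 0.04 (95% interval −0.91 to 0.98), minus that in B cells −1.02 (−1.91 to −0.13, adjusted p = 0.176) and minus that in T cells −0.21 (−1.11 to 0.68). No member passed for SUS against Ly6Clow monocytes (0.363% of genes did), B cells (6.18%) or T cells (3.22%), nor for RES against Ly6Clow monocytes (0.099%), B cells (1.65%) or T cells (0.713%). At an unadjusted p of 0.05, the SUS interaction with Ly6Clow monocytes passed for 1 member, H2-DMa (14.2% of genes), that with B cells for 1, Cd74 (21.2%), and that with T cells for 0 (18.7%). For RES the numbers were 0 (11.7%), 0 (18.2%) and 1, H2-DMb1 (17.7%). In a fit of Ly6Chigh monocytes and B cells alone, 3 members passed the SUS interaction, where 3.24% of genes did: Cd74 (−1.03, adjusted p = 0.00255), H2-Aa (−1.11, adjusted p = 0.0143) and H2-Eb1 (−1.20, adjusted p = 0.0391). All these interactions use the Ly6Chigh SUS or RES libraries on which Cd74 was chosen, so they are not independent of that choice.

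The 2 beta chains of H2-DM were used differently by the cell types. H2-DMb1 took 89.8% of the reads of the pair in Ly6Chigh monocytes (range 78.1% to 98.0% over 18 libraries) and 85.9% in Ly6Clow monocytes (78.6% to 94.1%, 16 libraries), but 12.2% in B cells (9.44% to 14.4%, 17 libraries). No monocyte library overlapped a B cell library. In B cells the share rested on 17632 to 37984 reads per library and was 12.1%, 12.1% and 12.4% on average in CON, SUS and RES. In Ly6Chigh monocytes the means were 85.7%, 90.3% and 93.2%, and the groups overlapped. T cell libraries held 10 to 235 reads of the pair and ranged from 0% to 91.7%. These shares depend on how reads common to both genes were counted.

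**Figure D5:**
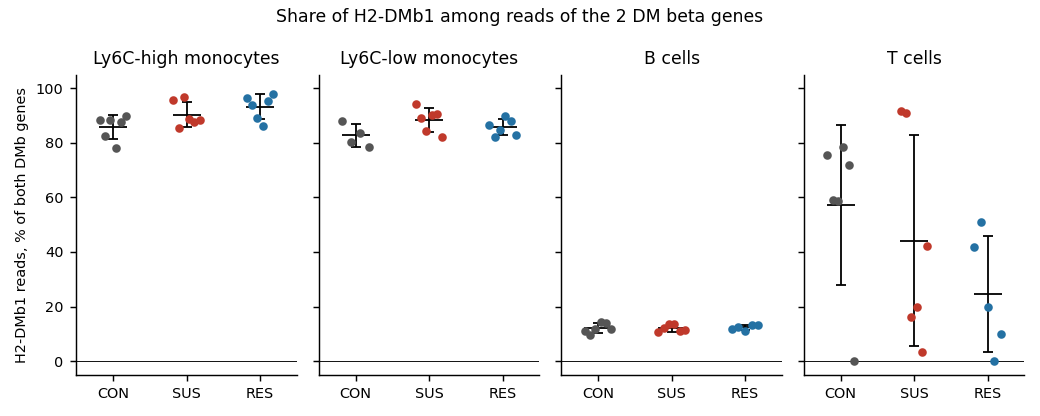
Share of H2-DMb1 in the summed reads of H2-DMb1 and H2-DMb2, 1 point per library by cell type and group, with the mean as a horizontal line and bars of 1 SD. Monocyte libraries lie between 78.1% and 98.0%, B cell libraries between 9.44% and 14.4%, and T cell libraries, with at most 235 reads, scatter.

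Of 39 other genes of the pathway, in 6 lists, 34 were tested in Ly6Chigh monocytes. For SUS against CON 8 were higher and 3 lower at an adjusted p of 0.05, where 12.6% of all genes passed, and for RES against CON 6 were higher and 0 lower, where 4.97% passed. In the list of peptide loading and invariant chain processing, 5 of 7 rose in SUS and 4 of 7 in RES, with median log2 fold changes of 0.88 and 0.64. Ctsd, the aspartic protease cathepsin D, rose from 61.7 ± 14.8 CPM in CON to 177 ± 64.0 in SUS (SD, n = 6; 1.52, SE 0.280, adjusted p = 0.00177), and its mean in RES was 140.5 ± 67.5. Ctsb, cathepsin B, rose from 856 ± 69.6 to 1389 ± 248 in SUS and 1336 ± 211 in RES. Lgmn, an asparagine-specific endopeptidase that starts the cleavage of the invariant chain, rose from 73.0 ± 12.3 to 135 ± 24.4 and 133 ± 40.2. Ctss, cathepsin S, which makes the last cuts in the invariant chain in many antigen-presenting cells, was 1699 ± 107 CPM in CON and rose to 2523 ± 324 in RES (0.57, adjusted p = 0.0153), and its mean in SUS was 2526 ± 428. With the red cell or the dendritic cell markers as a covariate 0 of the 7 passed in either contrast. Over all genes, 2 passed for SUS with the red cell covariate and 0 with the dendritic cell covariate, and 0 passed for RES with either. The loss is therefore not particular to these 7 genes. Without RES library 9 or RES library 18 the RES count was 2.

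Among the partners of Ciita on the promoter (7 genes), Creb1 fell in SUS from 149 ± 34.6 to 92.7 ± 25.8 CPM (−0.68, adjusted p = 0.0308) and Nfyc, a subunit of NF-Y, rose (0.52, adjusted p = 0.0353, and 0.58 in RES, adjusted p = 0.0385). Among the inducers and repressors of Ciita (11 of 12 tested), 1 rose and 2 fell in SUS and 0 passed in RES: Spi1, which encodes PU.1, rose from 363 to 525 CPM (0.53, adjusted p = 0.0228), Irf4, an interferon regulatory factor, fell from 139.8 to 87.6 CPM (−0.67, adjusted p = 0.0221), and Jak2, a kinase of the interferon gamma receptor, fell from 106 to 75.6 CPM (−0.49, adjusted p = 0.0270). In the list around the MIF receptor, Mif, the cytokine bound by Cd74, rose from 5.28 ± 3.02 CPM in CON to 13.9 ± 5.39 in SUS and 12.1 ± 3.83 in RES (1.40 and 1.20, adjusted p = 0.00955 and 0.0428). The other tested genes of that list did not pass. The SUS calls of Creb1, Nfyc, Spi1, Irf4, Jak2 and Mif were each lost with the red cell, B cell and dendritic cell covariates. The adjusted p ran from 0.755 for Irf4 to 0.977 for Spi1 with the red cell covariate. With the B cell covariate it ran from 0.0703 for Mif to 0.127 for Irf4. With the dendritic cell covariate Creb1 stood at 0.046 and Irf4 at 0.10. In those fits 2, 695 and 0 of all genes passed the adjusted p, against 2139 without a covariate. The losses are therefore not particular to these genes. None of the 5 turnover and costimulation genes (March1, Cd83, Cd40, Cd80 and Cd86) passed, and H2-Eb2, H2-Ea-ps and Btnl2 were too low to test.

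In the other cell types 0 of the tested pathway genes passed with edgeR. In Ly6Clow monocytes 9 of 35 passed an unadjusted p of 0.05 for SUS, 9 for RES and 1 for SUS against RES (9.51%, 9.67% and 3.79% of all genes), and with DESeq2 2, 2 and 0 passed. In B cells (36 tested) the unadjusted numbers were 2, 1 and 0 (3.42%, 3.18% and 1.36% of all genes), with 0 by DESeq2, and in T cells (33 tested) 4, 2 and 0 (4.8%, 4.11% and 2.39%), with 2, 0 and 0 by DESeq2. The share of all genes that passed with DESeq2 in these cell types is not given here, so its calls have no rate beside them.

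Cd74 was correlated with Ciita and with the means of B cell, dendritic cell and red cell markers in each cell type, after group means were removed (log2 of CPM plus 0.5, 16 correlations, permutation tests within groups, Benjamini-Hochberg adjusted). With Ciita, r was 0.82 in Ly6Clow monocytes (rho = 0.77, adjusted p = 0.00293 for r and 0.01 for rho, 0.83 without the 2 farthest libraries, n = 16) and 0.81 in B cells (rho = 0.84, adjusted p = 0.00224 and 0.00096, 0.80 without 2, n = 17). In Ly6Chigh monocytes it was 0.33 (rho = 0.26, adjusted p = 0.342 and 0.45, n = 18) and in T cells 0.46 (rho = 0.46, adjusted p = 0.248 and 0.24, n = 17). In B cells Cd74 also went with the B cell marker mean (r = 0.80, rho = 0.86, adjusted p = 0.00532 and 0.00096, 0.77 without 2). With the dendritic cell marker mean in Ly6Clow monocytes this made 4 of 16 that passed. In Ly6Chigh monocytes r was 0.29 with the dendritic, −0.23 with the red cell and −0.07 with the B cell marker mean, none of which passed.

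Over the 18 Ly6Chigh libraries, with group differences left in, the genes whose levels ran most like those of Cd74 among 7965 genes with a mean of at least 10 CPM were H2-Aa (rank 1, r = 0.88), H2-Ab1 (rank 2, r = 0.82) and then the non-members Slamf7 (r = 0.81), Slamf8, Dnmt3a and Smim5 (r = 0.81 each), with H2-Eb1 at rank 7 (r = 0.79) and Cd209a at rank 8 (r = 0.78). Slamf7 and Slamf8 encode surface receptors of the SLAM family and Dnmt3a a DNA methyltransferase. Ciita ranked 304 (r = 0.56), H2-DMb1 3379 (r = 0.05) and H2-DMa 4755 (r = −0.20). In B cells (7717 genes, 17 libraries) the order was led by Laptm5 (r = 0.96), a lysosomal membrane protein, Il4ra (0.93), an interleukin receptor chain, Tapbp (0.92), the class I loading factor tapasin, Eef2 (0.92) and Cdc37 (0.92). H2-Ab1 ranked 191, Ciita 200, H2-Eb1 390, H2-Aa 920 and H2-Ob 2413. These correlations are descriptions over libraries that share groups and processing, and Cd74 itself was chosen for its pattern in the Ly6Chigh libraries.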

How the data were processed

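The authors sorted blood leukocytes, made libraries with a stranded total RNA kit (SMARTer Pico v2; paired 150-base reads), aligned them with HISAT2 2.1.0 to mm10 and counted them per Ensembl 90 gene with htseq-count 0.12.4. They deposited raw counts, 1 column per library, which were used as deposited. Symbols and positions came from GENCODE M21 (52489 of 52636 identifiers matched). No 2 libraries of a group were identical (171 pairs).

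Each cell type was fitted on its own with edgeR 4.0.16 (R 4.3.3): TMM, filterByExpr, robust quasi-likelihood F tests over all genes tested (16955 in Ly6Chigh monocytes, 19521 in Ly6Clow monocytes, 17620 in B cells, 18860 in T cells), Benjamini-Hochberg adjusted. The study's thresholds were an adjusted p of 0.05 and an absolute log2 fold change above 1; calls by the adjusted p alone are given as well. All 10 members passed the filter in each cell type. An SE is the absolute log2 fold change over the square root of F, and a 95% interval is 1.96 SE either way. For members with few reads (H2-Oa and H2-Ob in Ly6Chigh monocytes, the H2-DM beta chains in T cells) counting error adds to the spread between libraries. Cell types and interactions were tested in a fit of 12 groups. The tests were checked on simulated data with 200 changed genes. Alternatives were DESeq2 1.42.0, its size factors, other filters, marker covariates, leaving out each library and, added after the data were seen, a dendritic cell covariate.

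The members, pathway lists and marker lists were chosen with earlier results of these data known. All 10 members are named. From each pathway list up to 3 genes with the smallest p-values among those passing are named, and for likeness to Cd74 the 5 non-members with the highest r. Promoters of Cd74, H2-Ab1 and Ciita were not used here.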

Additional observations from a re-analysis of the deposited data

Results flagged for a closer look

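Of 120 sets of libraries (each member in each cell type and group), 10 held a library far from the rest by Dixon's criterion at the 95% level, where chance flags about 1 in 20. In Ly6Chigh monocytes, CON library 7 stood high for H2-Aa (119 CPM) and H2-Eb1 (63.1 CPM), and SUS library 14 for H2-DMa (178 CPM). In Ly6Clow monocytes, SUS library 33 stood high for H2-DMa (44.6 CPM) and H2-DMb2 (11.9 CPM), and RES library 23 for H2-DMa (67.6 CPM) and H2-DMb1 (61.9 CPM). In B cells CON library 47 stood high for H2-DMb1 (104 CPM). In T cells SUS library 57 stood high for H2-DMa (27.9 CPM) and CON library 56 for H2-Ob (44.0 CPM).

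Library 70, labelled T cells of a RES mouse and left out, held Cd74 at 8163 CPM of its total, against 6.50 to 47.7 in the T cell libraries of CON mice, with the B cell gene Cd79a at 1079 CPM and the T cell gene Cd3e at 0.109. Library 52, labelled B cells of a RES mouse and left out, held Cd74 at 9.75 CPM, Cd79a at 4.91 and Cd3e at 352.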

How the results depend on the processing

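Of 73 results, 469 of 553 values under another processing were classed as the same, as were 971 of 1024 with 1 library left out. For a tested fold change or correlation, the same meant an unchanged direction and side of the adjusted p threshold. For a count it meant an equal or similar count, so that 3 members instead of 2 were classed as the same. For SUS against RES in Ly6Chigh monocytes it meant an unchanged sign and a shift smaller than the SD between libraries. The count of members past both thresholds for SUS against CON in Ly6Chigh monocytes (2) became 4 by the adjusted p alone, 1 with the B cell covariate, and 0 with the red cell and with the dendritic cell covariate (0 to 3 with a library left out; 3 under the other 6 alternatives). Over all genes that count was 585, 803 with DESeq2, 226 with the B cell, 2 with the red cell and 0 with the dendritic cell covariate. In Ly6Clow monocytes the SUS count (0) was 3 with DESeq2 (0 to 1 with a library left out). The peptide loading counts in Ly6Chigh monocytes (5 for SUS, 4 for RES) were 0 with the red cell and the dendritic cell covariate (5 to 5 and 2 to 4 with a library left out). The interaction of Ly6Chigh monocytes with B cells for SUS (0) was 3 in a fit of those cell types alone.

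Signs reversed as follows. In Ly6Chigh monocytes, for SUS against CON, H2-DMa was −0.30 with the red cell and −0.31 with the dendritic cell covariate, H2-DMb1 −0.21 and −0.37, H2-Ob 0.39 with the red cell covariate, and Creb1 0.046 and Irf4 0.10 with the dendritic cell covariate. For RES, Cd74 was 0.013 and 0.12 with these covariates, and H2-Eb1 lay between −0.030 and 0.38 with a library left out. In Ly6Clow monocytes the dendritic cell covariate gave SUS values of 0.080 for Cd74, 0.45 for H2-Aa, 0.055 for H2-Ab1, 0.32 for H2-Eb1, 0.00501 for H2-DMa, 0.16 for H2-DMb1, 0.38 for H2-Oa, 0.28 for H2-Ob and 0.27 for Ciita. None of these Ly6Clow values passed in edgeR (adjusted p from 0.99942 to 0.999471). The cause of the reversals was not tested. Cd74 for SUS against CON in Ly6Chigh monocytes ran from −1.08 to −0.77 over the alternatives (adjusted p from 5.36e-14 to 0.99993). No paired analysis was possible because each library carries its own number and the groups share none; whether cell types share mice is not in the labels. Depth limits H2-Oa and H2-Ob in Ly6Chigh monocytes and the H2-DM beta chains in T cells.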

Other observations

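In T cells the levels of Cd74 and the classical chains differed by library number, a split chosen after the values were seen. Cd74 lay between 16.6 and 47.7 CPM in the 7 libraries numbered 53 to 59 and between 6.50 and 13.0 CPM in the 10 libraries numbered 60 to 69, with CON, SUS and RES libraries on both sides. H2-Ab1 lay between 8.90 and 23.8 CPM in the former and between 0.833 and 3.13 CPM in the latter, and H2-Eb1 between 3.86 and 14.0 CPM and between 0.303 and 3.50 CPM. The summed B cell markers overlapped, at 13.2 to 33.5 CPM and 13.7 to 38.2 CPM. What the numbers stand for is not given in the labels.

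The summed red cell markers ran alike across cell types in the order of the library numbers, noticed after the values were seen. In CON the first library of Ly6Chigh monocytes, B cells and T cells was the lowest of its group (332, 1182 and 928 CPM) and the second the highest (1142, 6945 and 2941 CPM). In RES the second was the highest in all 4 cell types (4130 CPM in Ly6Chigh and 4513 CPM in Ly6Clow monocytes, 8660 CPM in B cells and 4799 CPM in T cells). In SUS the fifth was the highest in all but T cells (8776 CPM in Ly6Chigh and 3188 CPM in Ly6Clow monocytes and 11323 CPM in B cells), where the third was. The labels do not name the mice, so no libraries were matched on this order.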
